A study of Homo sapiens with 2 samples.

Results

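The imprinted microRNA (miRNA) cluster at chromosome 14q32 was examined on 1 array of H460 cells given sulforaphane for 48 hours and 1 array of H460 cells given vehicle for 48 hours. H460 is an established human non-small cell lung cancer line, and sulforaphane is an isothiocyanate from cruciferous vegetables. The probes were chosen by name: a workbook row belonged to the cluster when its name held the number of a 14q32 miRNA, in any arm. This gave 72 of the 1273 human miRNA probes, covering 48 of the 49 numbers searched, and RefSeq places all 72 on chromosome 14. The remaining number is represented by miR-544a, whose added letter the rule did not match. Its probe read 0.516 with sulforaphane and 0.516 with vehicle, in the normalized units explained below. Both groups came from 1 line in the same medium and differ in the labels only by the agent; no source used here gives the sulforaphane dose. With 1 array per group no spread between cultures could be estimated, so the differences below carry no test, and the number of arrays limits the precision.

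The 14q32 region, also called the DLK1-DIO3 domain, is subject to genomic imprinting: its protein-coding genes DLK1, RTL1 and DIO3 are expressed from the paternal chromosome, and its long non-coding RNAs (MEG3, MEG8, MEG9), small nucleolar RNAs and miRNAs from the maternal one. The miRNAs lie in an upstream group, part of which runs antisense to RTL1, and in a longer downstream group that starts at miR-379 and contains miR-410. They are known for high levels in brain, placenta, embryonic tissues and stem cells, and the maternal transcripts are silenced in many tumours and cultured lines. A miRNA hairpin yields a 5p and a 3p arm, of which one is often more abundant. The seed, bases 2 to 8 of a mature miRNA, is the main part that pairs with target messages.

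Values are normalized intensities: the background-subtracted brightness of a probe divided by 1 factor per array, 124 for sulforaphane and 111.5 for vehicle. A probe was called above the floor when it was brighter than 95% of the 143 probes for viral miRNAs on that array, taken at their 95th percentile, since uninfected human cells make no viral miRNA. That floor was 5.52 with sulforaphane and 6.44 with vehicle, or 684 background-subtracted units with sulforaphane and 718 with vehicle. The highest viral values were 151 with sulforaphane and 108 with vehicle, and what such probes bound was not tested. Because probes differ in affinity, brightness does not order miRNAs by abundance. The ratio scale was not centred on 0: among the 168 human miRNA probes above the floor on both arrays, the median log2 ratio, sulforaphane over vehicle, was 0.38. Other scalings moved that median to between -0.26 and 0.54. The 7 negative control probes ranged up to 1.49 with sulforaphane and 2.19 with vehicle, and their medians were 0.371 with sulforaphane and 0.238 with vehicle. None of the 6 epithelial markers, the miR-200 family and miR-205-5p, was above the floor with either agent, and their highest values were 3.96 with sulforaphane and 3.97 with vehicle. Of 5 miRNAs common in carcinoma lines, 5 were above it with sulforaphane and 4 with vehicle. Of 6 blood markers, 0 were above it on either array.

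Mature sequences from RefSeq (GRCh38.p14) matched 59 of the 72 probe names exactly. The sequences of the 6 matched probes that passed the floor on an array are shown because the results turn on them, with the other arms of the same hairpins where they were measured. They are written 5′ to 3′ with the seed in capitals.
miR-431-5p: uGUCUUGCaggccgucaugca
miR-431-3p: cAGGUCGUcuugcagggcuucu
miR-299-5p: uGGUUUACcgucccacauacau
miR-299-3p: uAUGUGGGaugguaaaccgcuu
miR-495-5p: gAAGUUGCccauguuauuuucg
miR-495-3p: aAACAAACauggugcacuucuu
miR-377-3p: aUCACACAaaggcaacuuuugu
miR-377-5p: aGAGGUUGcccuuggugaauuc
miR-665: aCCAGGAGgcugaggccccu
The 6 probes above a floor have 6 different seeds, and no other matched human probe on the array shares one of these seeds.

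Most of the cluster gave little signal under either condition. Of the 72 probes, 4 passed the floor on both arrays, 1 with sulforaphane alone, 2 with vehicle alone and 65 on neither (90.3%, against 82.2% of all human miRNA probes). The share above it on both arrays was 5.56%, against 13.2% of all human miRNA probes. It was 4.90% of the viral probes, whose own values set the floor. With sulforaphane alone it was 1.39% of the cluster, against 3.46% of all human miRNA probes, and with vehicle alone 2.78%, against 1.10%. The median intensity of the 72 probes was 0.631 with sulforaphane and 0.643 with vehicle. The same medians were 0.827 with sulforaphane and 0.780 with vehicle over the other 1201 human miRNA probes, and 0.609 with sulforaphane and 0.628 with vehicle over the viral probes. In the cluster, 53 probes read under 1 with sulforaphane and 46 with vehicle. The medians over all 1273 human miRNA probes, 0.798 with sulforaphane and 0.762 with vehicle, were under 1 too. Reading under 1 was therefore not particular to the cluster.

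**Figure D1:**
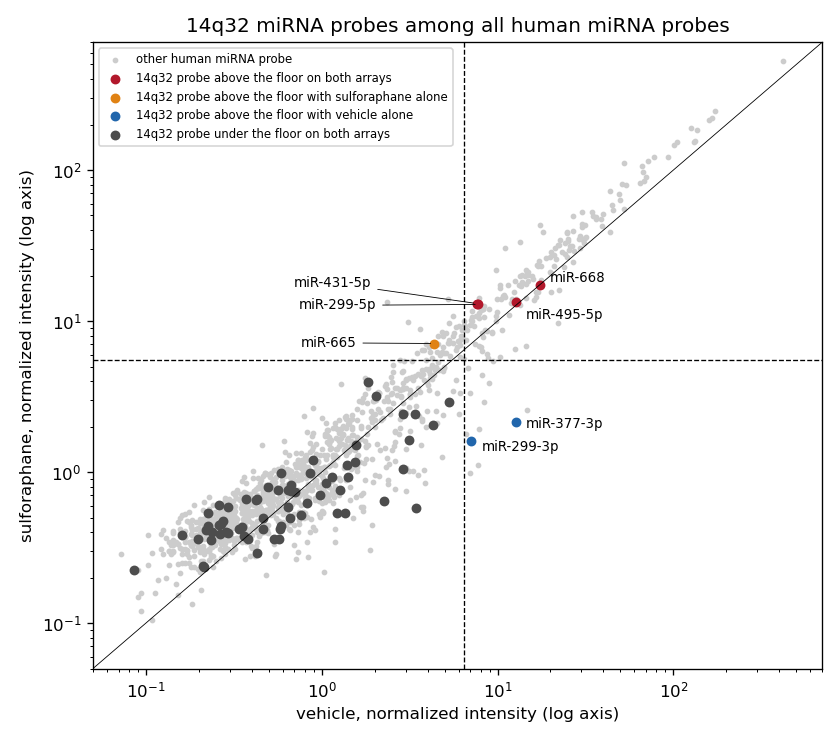
Normalized intensity of each human miRNA probe with sulforaphane (vertical, log axis) and with vehicle (horizontal, log axis), 1 array each, with coloured points for the 72 probes of the 14q32 cluster. Dashed lines mark the floors of 5.52 with sulforaphane and 6.44 with vehicle, the diagonal marks equal values, and 65 of the 72 cluster probes lie below both floors.

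The 4 probes above the floor on both arrays were miR-668, miR-495-5p, miR-431-5p and miR-299-5p. The probe for miR-431-5p, an upstream miRNA that acts in muscle regeneration in mice, read 13.1 with sulforaphane and 7.63 with vehicle, a 1.71-fold higher value (log2 ratio 0.78). The probe for miR-299-5p, from the downstream group, read 12.9 with sulforaphane and 7.79 with vehicle, 1.65-fold higher (log2 ratio 0.73). In both cases the vehicle spot stood close to the floor and the sulforaphane spot well above it. The probe for miR-495-5p read 13.3 with sulforaphane and 12.7 with vehicle (log2 ratio 0.071). The probe for miR-668 was the brightest of the cluster at 17.2 with sulforaphane and 17.4 with vehicle (log2 ratio -0.015). These 2 probes thus read nearly alike on both arrays, while the median detected miRNA was higher with sulforaphane.

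None of the 4 reached the size rule of 2-fold. Among the 168 human miRNA probes above the floor on both arrays, 6 (3.57%) passed the rule on the higher side and 2 (1.19%) on the lower side, so 0 of 4 cannot be told from that background. At 1.5-fold, 2 of the 4, miR-431-5p and miR-299-5p, were higher (background 16.1%) and 0 lower (background 2.98%). Ranked by ratio from the highest, miR-431-5p stood 10th and miR-299-5p 13th of the 168, while miR-495-5p stood 132nd and miR-668 141st. On the log2 scale, miR-431-5p lay 0.39 and miR-299-5p 0.34 above the median of those 168 probes. On the same scale the difference from that median was -0.31 for miR-495-5p and -0.40 for miR-668. The 41 spike-in probes above the floor, whose RNA was added and so carries no variation between cultures, had a median log2 ratio of 0.68 and an SD of 0.20 between probes. The signs of the miR-431-5p and miR-299-5p ratios were the same under the 6 alternatives computed for each, with log2 ratios of 0.14 to 0.93 and 0.088 to 0.88. The lowest values, 0.14 for miR-431-5p and 0.088 for miR-299-5p, came from scaling to the spike-in probes. Both were smaller than the SD of 0.20 between spike-in probes. Scalings move all probes of an array together, so the sign of a ratio near 0, as for miR-495-5p and miR-668, depends on the scaling.

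The 3 probes above the floor on 1 array were miR-665, miR-377-3p and miR-299-3p. The probe for miR-665, an upstream miRNA, read 7.10 with sulforaphane and 4.34 with vehicle (measured log2 ratio 0.71), which is at least 1.10-fold higher against the vehicle floor in the authors' scaling. Its measured log2 ratio lay between 0.071, scaled to the spike-in probes, and 0.86, without normalization, so that bound does not hold under every scaling. Of the 44 human miRNA probes above the floor with sulforaphane alone, 4.55% had a bound of at least 2-fold. The probe for miR-377-3p, described in kidney cells as a miRNA that raises fibronectin, read 2.15 with sulforaphane and 12.7 with vehicle, at least 2.30-fold lower against the sulforaphane floor. The probe for miR-299-3p read 1.60 with sulforaphane and 7.10 with vehicle, at least 1.29-fold lower. Of the 14 human miRNA probes above the floor with vehicle alone, 2 (14.3%) had a bound of at least 2-fold, and miR-377-3p was 1 of them. Neither sulforaphane value was above the floor, so the bounds stand in place of measured folds. The background-subtracted brightness was 267 units with sulforaphane and 1412 units with vehicle for miR-377-3p. For miR-299-3p it was 198 units with sulforaphane and 792 units with vehicle.

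**Figure D2:**
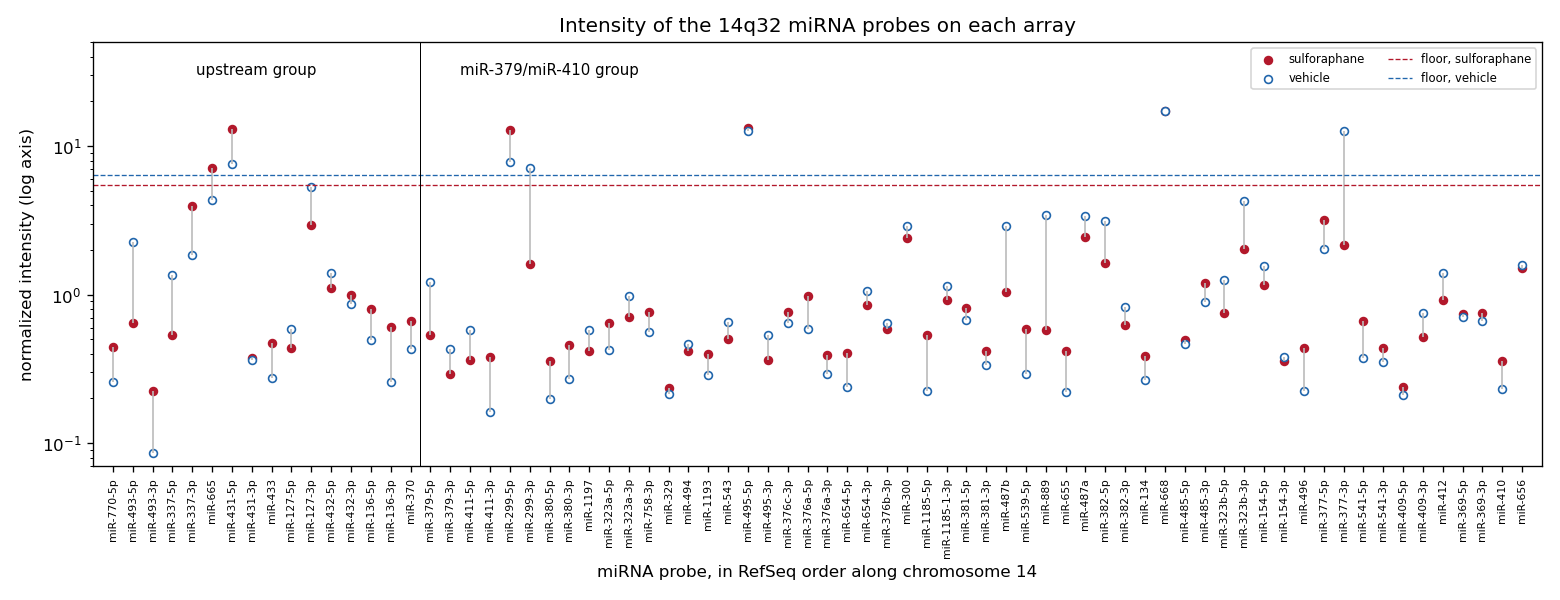
Normalized intensity (log axis) of each of the 72 probes with sulforaphane (filled red) and with vehicle (open blue), ordered along chromosome 14 by RefSeq, with the array floors as dashed lines. The 16 upstream probes stand left of the vertical line and the 56 probes of the miR-379/miR-410 group right of it, and the 7 probes that pass a floor are scattered over both groups.

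Position along the cluster did not gather the brighter probes in 1 place. The upstream group, from miR-770 to miR-370, had 16 probes for 10 miRNA numbers. Of them, 1 was above the floor on both arrays (6.25%) and 1 with sulforaphane alone (6.25%). The miR-379/miR-410 group had 56 probes for 38 numbers, of which 3 were above it on both arrays (5.36%) and 2 with vehicle alone (3.57%). Over all human miRNA probes, 13.2% were above it on both arrays, 3.46% with sulforaphane alone and 1.10% with vehicle alone. Median intensities were 0.651 with sulforaphane and 0.722 with vehicle in the upstream group. They were 0.605 with sulforaphane and 0.643 with vehicle in the miR-379/miR-410 group. A set of 9 probes lies within the span of RTL1 in RefSeq: both arms of miR-431, miR-127, miR-432 and miR-136, and miR-433. Antisense miRNAs of this kind direct cleavage of the Rtl1 message in mice. Of these 9, 1 was above the floor on both arrays (11.1%, background 13.2%) and 8 were under it on both (88.9%, background 82.2%). The brightest of the 8 was miR-127-3p at 2.92 with sulforaphane and 5.33 with vehicle. The probe for miR-433 read 0.476 with sulforaphane and 0.274 with vehicle, and that for miR-136-3p 0.609 with sulforaphane and 0.260 with vehicle. The probe for miR-770-5p, the 1 probe whose gene lies within MEG3, read 0.444 with sulforaphane and 0.260 with vehicle.

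Among probes under both floors, the 5 brightest were miR-127-3p, miR-323b-3p, miR-487a, miR-337-3p and miR-300. The probe for miR-323b-3p read 2.04 with sulforaphane and 4.29 with vehicle, and that for miR-487a 2.44 with sulforaphane and 3.39 with vehicle. The probe for miR-337-3p read 3.94 with sulforaphane and 1.84 with vehicle, and that for miR-300 read 2.42 with sulforaphane and 2.90 with vehicle. Several much-studied members, picked for their roles after the values were known, were near the negative controls. The probe for miR-134, which limits dendritic spine size through LIMK1 in rat neurons, read 0.387 with sulforaphane and 0.265 with vehicle. The probe for miR-370 read 0.661 with sulforaphane and 0.430 with vehicle. The probe for miR-410 read 0.355 with sulforaphane and 0.233 with vehicle. The probe for miR-494 read 0.419 with sulforaphane and 0.466 with vehicle. The probe for miR-376a-3p, an arm whose precursor is edited from adenosine to inosine in human brain, read 0.395 with sulforaphane and 0.291 with vehicle. Differences between the arrays at these signals are not measured folds.

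The 2 arms of a hairpin were both on the array, under names that give the arm, for 23 miRNAs of the cluster. In 4 of these 23, an arm was above a floor on at least 1 array: miR-431, miR-299, miR-495 and miR-377. In 1 of them, miR-299, each arm passed a floor on some array, and in 0 of them did both arms pass it on both arrays. The arms of miR-299 went apart: the 5p probe read 12.9 with sulforaphane and 7.79 with vehicle, and the 3p probe read 1.60 with sulforaphane and 7.10 with vehicle. The arms of miR-377 did so too, at 3.21 with sulforaphane and 2.03 with vehicle for 5p, and 2.15 with sulforaphane and 12.7 with vehicle for 3p. The 5p probe of miR-377 was under the floor on both arrays, so its direction is not a measured fold. With sulforaphane, the 3p probes of miR-299 and miR-377 were under the floor too. The log2 ratio of miR-299-5p fell to 0.088 after scaling to the spike-in probes. For miR-495 and miR-431 the 3p probes were near the negative controls: miR-495-3p read 0.363 with sulforaphane and 0.534 with vehicle, and miR-431-3p read 0.375 with sulforaphane and 0.363 with vehicle. Over the 23 pairs, the measured ratios of the arms had opposite signs in 10 and the same sign in 13. Most of these signs come from probes under the floor. The same counts were not made over all human arm pairs on the array. The counts of pairs therefore cannot be called particular to the cluster.

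**Figure D3:**
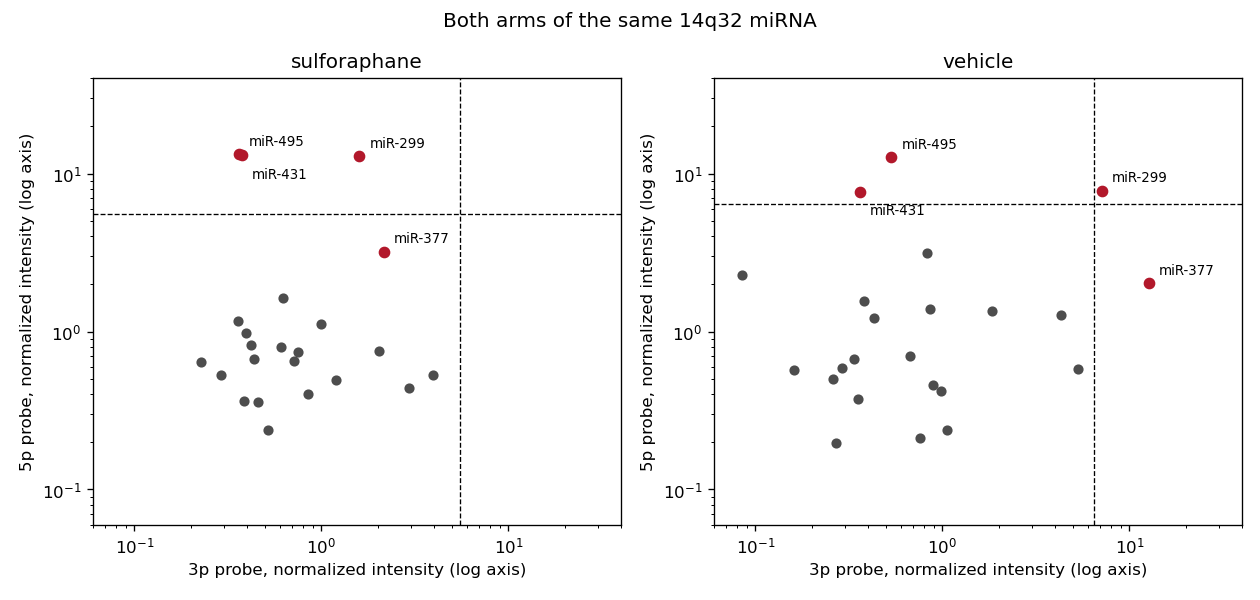
Normalized intensity of the 5p probe (vertical) against the 3p probe (horizontal) of the 23 miRNAs with both arms measured, log axes, with sulforaphane on the left and vehicle on the right. Dashed lines mark the floor of each array, and red points are the 4 miRNAs with an arm above a floor; with vehicle, miR-299 lies above the floor in both arms.

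By arm, 3 of the 26 probes named 5p (11.5%) passed the floor on both arrays, against 13.2% of all human miRNA probes. The other 23 were under it on both. Of the 27 probes named 3p, 0 were above it on both arrays, 2 with vehicle alone (7.41%) and 25 on neither (92.6%). The 19 names without an arm had 1 above it on both arrays (miR-668), 1 with sulforaphane alone (miR-665) and 17 on neither. Over all human miRNA probes, 3.46% were above it with sulforaphane alone, 1.10% with vehicle alone and 82.2% on neither. The difference between the arms was not tested. Median intensities were 0.657 with sulforaphane and 0.630 with vehicle for 5p, and 0.621 with sulforaphane and 0.646 with vehicle for 3p. The median log2 ratio was 0.23 for 5p probes and 0.046 for 3p probes, both under the 0.37 of all human miRNA probes. Each of these medians is made mostly of probes under the floor.

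The measured ratios of the 65 probes under both floors ran from -2.58 (miR-889) to 1.41 (miR-493-3p) on the log2 scale. Their median was 0.12, against 0.37 over all 1047 human miRNA probes under both floors and 0.22 over the viral ones. Of the 65, 6 (9.23%) measured 2-fold or more up with sulforaphane and 6 (9.23%) measured 2-fold or more down. Among the 1047 human probes, 123 (11.7%) measured up by that much and 50 (4.78%) down. The same counts among the viral probes under both floors were 13 and 10, so ratios of this size were also read from probes with no target in these cells. The 6 cluster probes on the lower side included miR-889, at 0.577 with sulforaphane and 3.45 with vehicle, and miR-487b, at 1.04 with sulforaphane and 2.90 with vehicle. The probe for miR-493-5p read 0.641 with sulforaphane and 2.26 with vehicle.

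Ratios differed with signal, and the division into signal bands was made after the values were known. For the 28 cluster probes under both floors with a mean below 0.5, the median log2 ratio was 0.51 and 6 (21.4%) were below 0. All 404 human miRNA probes of that band had a median of 0.67, and 45 (11.1%) were below 0. Of the 59 viral probes in it, 8 (13.6%) were below 0. The 7 negative controls had a median log2 ratio of 0.80. Their median intensities lie at such signals, but the brightest read 1.49 with sulforaphane and 2.19 with vehicle. For the 17 cluster probes under both floors with a mean of at least 1, the median was -0.47 and 14 were below 0. The mean is taken over the arrays that form the ratio, so a probe could enter this band through 1 array alone. The probe for miR-889 did so through vehicle (0.577 with sulforaphane and 3.45 with vehicle). That for miR-485-3p did so through sulforaphane (1.20 with sulforaphane and 0.892 with vehicle). The sign counts in this band are therefore not independent of how it was drawn. Among all human miRNA probes in this band, 126 (39%) were below 0, and the median was 0.15. Of the 40 viral probes in it, 21 were below 0, with a median of -0.016. The 3 cluster probes of the band above 0 were miR-337-3p, miR-377-5p and miR-485-3p, at log2 ratios of 1.09, 0.66 and 0.43. With 1 array per group, whether these probes would read the same way again was not tested.

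The counts above depended on the floor. At the brightest negative control on each array, a floor chosen after the data had been seen, 12 of the 72 probes were above it on both arrays, against 25.8% of human miRNA probes. With sulforaphane alone 3 were above it (background 7.86%), and with vehicle alone 3 (background 1.89%). The 8 probes this added were miR-665, miR-127-3p, miR-299-3p, miR-300, miR-487a, miR-382-5p, miR-323b-3p and miR-377-3p. Of the 12, 8 had a ratio below 0 (background 26.1%), 3 passed the 2-fold rule on the lower side (background 4.86%) and 0 on the higher side (background 3.34%). Those 3 were miR-377-3p, miR-299-3p and miR-323b-3p. Their sulforaphane values of 2.15, 1.60 and 2.04 were under the main floor of 5.52, so by that floor these are not measured folds. The negative-control floor was itself uneven, at 1.49 with sulforaphane and 2.19 with vehicle. It rested on 1 bright probe: the upper quartile of the 7 controls was 0.458 with sulforaphane and 0.285 with vehicle. The median log2 ratio of the 12 was -0.37, against 0.31 over the human probes above that floor. At the median of all probes, 23 of 72 were above it on both arrays (background 43.7%), 1 with sulforaphane alone (background 5.5%) and 7 with vehicle alone (background 5.97%). Of these 23, 15 had a ratio below 0 (background 29.3%). The rule was passed by 4 on the lower side (background 6.29%) and 1 on the higher side (background 3.6%). Viral probes, for RNAs that uninfected human cells do not make, also gave such ratios. Of the 40 under both main floors with a mean of at least 1, 8 (20%) measured 2-fold or more down and 1 up. These 40 were picked by another rule than the 12 and the 23, and the differences were not tested. At the 90th percentile of the viral probes 5 of 72 were above it on both arrays (background 18.7%), 1 with sulforaphane alone (background 2.59%) and 4 with vehicle alone (background 2.36%), and at the 99th percentile 0 (background 5.26%).

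**Figure D4:**
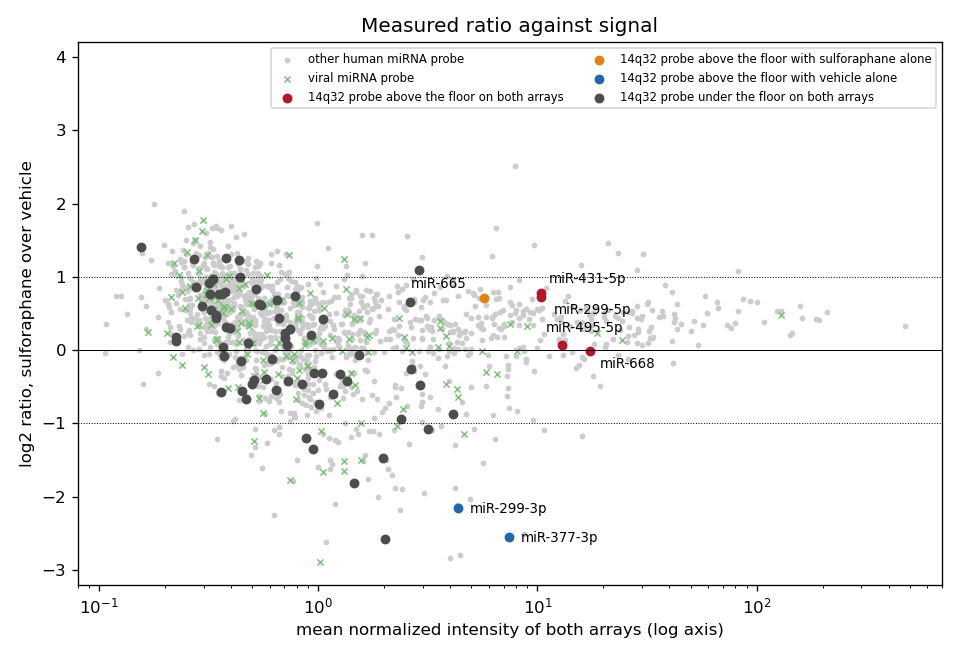
Log2 ratio, sulforaphane over vehicle, of the normalized values (vertical), against the mean normalized intensity of both arrays (horizontal, log axis) for 14q32 probes, other human miRNA probes and viral probes, with dotted lines at a 2-fold difference. The 4 red points above the floor on both arrays lie between -0.015 and 0.78, and the 2 blue points above it with vehicle alone are drawn at measured ratios of -2.15 and -2.56, whose sulforaphane values were under the floor.

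Some sequences of the cluster resemble one another, in ways the rule did not use. Among the 59 matched probes there were 55 distinct seeds, of which 4 were shared by 2 probes each. These pairs are shown because miRNAs with the same seed are grouped as a family.
miR-300: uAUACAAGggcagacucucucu
miR-381-3p: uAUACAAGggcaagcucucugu
miR-376a-3p: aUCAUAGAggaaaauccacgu
miR-376b-3p: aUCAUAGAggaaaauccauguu
miR-379-3p: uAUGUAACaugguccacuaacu
miR-411-3p: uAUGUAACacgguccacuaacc
miR-654-5p: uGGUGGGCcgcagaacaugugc
miR-541-3p: uGGUGGGCacagaaucuggacu
All 8 of these probes were under the floor on both arrays. Outside the cluster, miR-3679-5p has the seed of miR-1185-5p, and miR-563 has that of miR-380-5p. How often human probes share a seed over the whole array was not counted. The longest identical run was 18 bases between miR-376a-3p and miR-376b-3p, 12 between miR-300 and miR-381-3p, 11 between miR-379-3p and miR-411-3p and 8 between miR-654-5p and miR-541-3p. The probe for miR-376b-3p read 0.589 with sulforaphane and 0.641 with vehicle, and that for miR-376a-3p 0.395 with sulforaphane and 0.291 with vehicle. Whether probes for RNAs this alike share signal was not tested. The probe for miR-300 read 2.42 with sulforaphane and 2.90 with vehicle, and that for miR-381-3p 0.419 with sulforaphane and 0.336 with vehicle.

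A stretch spelled GGUCNAC, read 5′ to 3′ on the RNA and chosen after the sequences had been read, occurred in 7 of the 27 probes named 3p (25.9%). It occurred in 9 of 822 RefSeq human mature miRNAs named 3p (1.09%), a count that includes these 7. They were miR-493-3p, miR-379-3p, miR-411-3p, miR-380-3p, miR-323a-3p, miR-758-3p and miR-323b-3p, and 0 of the 7 passed a floor. The stretches GGUUG and AUGGU, chosen in the same way, were counted too. Among 3p names, AUGGU occurred in 18.5% of the cluster (2.07% of RefSeq) and GGUUG in 7.41% (1.95%). Among 5p names, AUGGU occurred in 3.85% (3.34%), GGUUG in 15.4% (4.08%) and GGUCNAC in 0 of 26 (0.124%). A few of the 7 with GGUCNAC are shown to place the letters, with the seed, not this stretch, in capitals. The stretch is ggucgac in miR-323b-3p, gguccac in miR-380-3p and GGUCuac in miR-493-3p.
miR-323b-3p: cCCAAUACacggucgaccucuu
miR-380-3p: uAUGUAAUaugguccacaucuu
miR-493-3p: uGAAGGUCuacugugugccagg
The probe for miR-323b-3p read 2.04 with sulforaphane and 4.29 with vehicle. That for miR-380-3p read 0.456 with sulforaphane and 0.269 with vehicle, and that for miR-493-3p 0.226 with sulforaphane and 0.0852 with vehicle. The last was the dimmest of the cluster on both arrays.

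Shared runs were measured for the 6 probes above a floor that have a matched sequence, against the other matched members; miR-668 and 12 more members could not be compared. The members that share the longest run with each of the 6 were under the floor on both arrays. The longest run that miR-431-5p shares with another member is 10 bases, gucuugcagg, with its own 3p arm, which read 0.375 with sulforaphane and 0.363 with vehicle. The longest run of miR-299-3p is 9 bases, gggauggua, shared with miR-1193, which read 0.399 with sulforaphane and 0.287 with vehicle. The longest run of miR-377-3p is 8 bases, shared with miR-409-5p, which read 0.238 with sulforaphane and 0.211 with vehicle. For miR-665 and miR-299-5p the longest run was 7 bases, shared with miR-485-5p (0.496 with sulforaphane and 0.462 with vehicle) and miR-541-5p (0.665 with sulforaphane and 0.372 with vehicle). For miR-495-5p it was also 7 bases, shared with 4 members, miR-376b-3p, miR-377-5p, miR-381-5p and miR-382-5p. Base composition showed little relation to brightness. Across the 59 matched probes, Spearman's rho between the share of G and C and the log2 mean intensity was 0.037, as a description over probes of the same 2 arrays. The median share was 45.5% in the 6 that passed a floor and 47.6% in those that did not.

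The other large imprinted miRNA cluster of the human genome, the primate-specific cluster on chromosome 19 that is expressed mainly in placenta, was counted in the same way. Of its 49 probes, 2 (4.08%) passed the floor on both arrays, 2 with sulforaphane alone and 0 with vehicle alone. The shares above the floor on both arrays were thus 5.56% for 14q32 and 4.08% for chromosome 19, and the difference was not tested. Under both floors, the median log2 ratio of probes with a mean below 0.5 was 0.51 for 14q32 and 0.82 for chromosome 19. It was 0.12 for 14q32 and 0.26 for chromosome 19 between 0.5 and 1. From 1 upward it was -0.47 over 17 probes of 14q32 and 0.53 over 6 probes of chromosome 19. These are readings not above the floor, in bands that a probe could enter through 1 array alone, and their differences were not tested. Probes in both clusters share sequence with cluster mates, so they do not count as independent.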

How the data were processed

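Hy3-labelled total RNA was hybridised to 1-colour miRCURY LNA arrays, 1 per group, per the labels' protocols. The deposited workbook gives foreground intensity, background-subtracted intensity and a normalized ratio per probe, per the file headers. The normalized ratio deposited by the authors equals the background-subtracted intensity over 1 factor per array for all 2661 probes with values, and the series' value table matched it to within 4.9e-08. No source used here names the scanner, its software or how background was measured. No spot of the 72 cluster probes was saturated.

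Cluster probes were found by name. Ratios are log2 of normalized values, sulforaphane over vehicle, with nothing added. Fewer than 2 arrays per group allowed no test, so a 2-fold size rule was used. Bounds divide the brighter value by the other array's floor. RefSeq (GRCh38.p14) gave sequences and gene order. Names that give no arm were not matched where RefSeq lists arms.

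The members, lists, bands and rules were chosen with earlier results of these data known. Named probes were those above a floor, the other arms of those, the 5 brightest under both floors, the 2 brightest upstream and any sharing a seed with a probe above a floor. Other names were chosen after their values were seen. Alternatives covered scaling, background, floor, size rule and a value added before the logarithm. The markers of mesenchymal and endothelial cells had 1 of 4 above the floor with sulforaphane and 0 with vehicle. Muscle markers had 0 of 4 with sulforaphane and 1 of 4 with vehicle, and neuronal and liver markers 1 of 3 with sulforaphane and 0 of 3 with vehicle. The calculations were checked by multiplying vehicle values by known factors and recovering them, a check of the arithmetic without added noise. Python 3.11.15, numpy 2.4.6, pandas 2.3.3, scipy 1.17.1 and matplotlib 3.10.9 were used.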

Additional observations from a re-analysis of the deposited data

How the results depend on the processing

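The floor moved the counts most. At the viral probes' 90th percentile, 4 cluster probes were above it with vehicle alone (2.36% of human probes were). At the 99th percentile 0 were above it on both arrays, 0 with sulforaphane alone and 0 with vehicle alone, and the chromosome 19 cluster had 0, 0 and 1. At the median of all probes, 23 were above it on both arrays (43.7% of human probes were), 7 with vehicle alone (5.97%) and 41 on neither, with 1 past the 2-fold rule upward and 4 downward (3.6% and 6.29% of human probes). The chromosome 19 cluster then had 11 on both arrays and 2 with vehicle alone. At the brightest negative control, added after the data had been seen, 12 were above it on both arrays (25.8% of human probes were). With sulforaphane alone 3 were above it (7.86%), and the chromosome 19 cluster had 5 on both arrays. Of the 12, 3 were at least 2-fold lower (4.86% of human probes), all with sulforaphane values under the main floor. Of 40 viral probes under both main floors with a mean of at least 1, 8 (20%) measured 2-fold or more down and 1 up. A size rule of 1.5-fold called 2 cluster probes higher, miR-431-5p and miR-299-5p (16.1% of detected human probes). Scaling cannot change the detection counts, since each floor is a percentile of the same array. The log2 ratio of miR-495-5p turned to -0.24 after scaling to the median of detected miRNAs, -0.17 after quantile normalization, -0.57 after scaling to the spike-in probes and -0.021 with the floor added before the logarithm. That of miR-668 turned to 0.14 without normalization and 0.0018 without background subtraction. Scaling moves all probes of an array together, and these settings moved the median of the detected miRNAs to between -0.26 and 0.54. The log2 ratio of miR-377-3p lay between -3.19 and -1.32, and that of miR-299-3p between -2.79 and -0.93. No paired analysis was possible because each group held 1 array.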
